A study of Mus musculus with 16 samples.

Results

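The genes described here are 31 germline genes whose promoters are known from mouse studies to be kept silent by DNA methylation outside the germline. They were taken as a fixed list of names, and a single-strand break peak was assigned to a gene where it shared at least 1 bp with the gene body or the 5 kb on either side of it (GENCODE M21, mouse genome mm10). All 31 names were found among the 21938 protein-coding genes of that annotation on chromosomes 1 to 19, X and Y. Their windows covered 1.76 Mb, and 72 peaks of the 4 deposited lists fell into them. A peak was counted as a start peak where it came within 1 kb of the gene's annotated 5′ end.

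Germline genes encode proteins that germ cells use to silence transposons, to enter meiosis and to pair and recombine chromosomes. In most other cells they are off, and many of their promoters carry CpG-rich sequence that is methylated around implantation. In embryonic stem cells in 2i medium the genome is poorly methylated, and a Polycomb complex that contains E2F6 and the E-box proteins MGA and MAX is known to hold many of these promoters silent. TDG, thymine DNA glycosylase, excises oxidised forms of 5-methylcytosine, and its repair reaction passes through a single-strand break.

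The study asked where such breaks lie in mouse embryonic stem cells with and without TDG and how a PARP inhibitor changes that. The 4 conditions were KO cells (labelled Tdg-depleted) with talazoparib, KO cells with DMSO, wild-type (WT) cells with talazoparib and WT cells with DMSO, each with 3 immunoprecipitated (IP) libraries and 1 input library. Talazoparib, which blocks PARP enzymes and holds them on DNA breaks, was given at 5 nM for 24 h. In SSB-seq, E. coli DNA polymerase I adds digoxigenin-labelled nucleotides at nicks in purified DNA, and labelled fragments are pulled down and sequenced.

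All cells were of strain C57BL/6JRj and grew in 2i medium with LIF. The growth notes, which are the same for every library, describe excision of a Tdg minigene with 4-hydroxytamoxifen (4-OHT, 5 µM for 2 h). The sources used here do not state whether WT cells also received it, how many clones or lines were used, or how long DMSO was applied. Break peaks measure neither expression, nor the Tdg deletion, nor methylation. The cell type, the genotype and the silent state of the promoters were therefore not checked against markers. What could be checked was CpG content: over 1 kb around the start, the ratio of observed to expected CpG of the 31 genes ran from 0.148 to 0.876 with a median of 0.637, against a median of 0.552 over all protein-coding genes. The germline median stood at the 57.8th percentile of all genes.

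Promoter sequences were available for 27 of the 31 genes in the RefSeq table (build GRCm38.p6). They are shown for the genes with a start peak in at least 2 lists, and then for the first 3 genes of the list without any start peak, to set promoters with recurrent peaks beside promoters where none was listed. Each is the 250 bases upstream of the RefSeq start, 5′ to 3′ on the gene's strand. Capitals mark CACGTG, the E-box read by MGA and MAX, and GCGGGA, the core read by E2F6, or its reverse complement.
Ddx4: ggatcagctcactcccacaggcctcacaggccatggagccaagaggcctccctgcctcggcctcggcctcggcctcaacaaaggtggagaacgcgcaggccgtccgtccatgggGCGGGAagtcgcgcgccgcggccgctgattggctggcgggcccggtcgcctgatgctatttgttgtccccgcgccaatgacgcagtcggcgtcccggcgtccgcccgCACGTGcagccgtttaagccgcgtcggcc
Mael: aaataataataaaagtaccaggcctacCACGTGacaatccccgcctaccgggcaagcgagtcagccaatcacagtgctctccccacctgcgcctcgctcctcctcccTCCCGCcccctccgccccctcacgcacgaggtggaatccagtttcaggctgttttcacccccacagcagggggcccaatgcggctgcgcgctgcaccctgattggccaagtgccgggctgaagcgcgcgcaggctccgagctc
Tdrd1: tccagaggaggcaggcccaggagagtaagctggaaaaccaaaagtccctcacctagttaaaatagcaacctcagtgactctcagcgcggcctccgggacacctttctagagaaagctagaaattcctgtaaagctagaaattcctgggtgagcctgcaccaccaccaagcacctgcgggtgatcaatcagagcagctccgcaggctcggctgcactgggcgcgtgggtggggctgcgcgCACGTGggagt
Mov10l1: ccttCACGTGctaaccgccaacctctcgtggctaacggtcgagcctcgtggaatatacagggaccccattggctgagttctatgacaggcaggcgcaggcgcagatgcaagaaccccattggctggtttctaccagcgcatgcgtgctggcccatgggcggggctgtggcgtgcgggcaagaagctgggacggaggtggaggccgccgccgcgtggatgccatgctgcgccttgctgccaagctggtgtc
Stk31: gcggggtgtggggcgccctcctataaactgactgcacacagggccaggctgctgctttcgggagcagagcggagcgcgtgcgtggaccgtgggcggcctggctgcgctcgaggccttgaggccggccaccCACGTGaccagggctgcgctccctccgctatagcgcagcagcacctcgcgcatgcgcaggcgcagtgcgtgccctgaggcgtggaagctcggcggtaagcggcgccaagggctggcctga
Sycp1: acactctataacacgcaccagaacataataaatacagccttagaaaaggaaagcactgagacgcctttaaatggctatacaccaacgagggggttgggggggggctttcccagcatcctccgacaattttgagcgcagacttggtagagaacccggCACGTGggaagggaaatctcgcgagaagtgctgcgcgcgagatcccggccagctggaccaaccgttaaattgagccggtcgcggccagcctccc
Syce1: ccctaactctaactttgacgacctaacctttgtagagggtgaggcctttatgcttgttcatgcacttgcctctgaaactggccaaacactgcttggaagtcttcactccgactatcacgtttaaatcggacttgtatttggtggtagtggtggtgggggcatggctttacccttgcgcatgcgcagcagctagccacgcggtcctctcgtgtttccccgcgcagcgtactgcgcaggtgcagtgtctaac
Hormad1: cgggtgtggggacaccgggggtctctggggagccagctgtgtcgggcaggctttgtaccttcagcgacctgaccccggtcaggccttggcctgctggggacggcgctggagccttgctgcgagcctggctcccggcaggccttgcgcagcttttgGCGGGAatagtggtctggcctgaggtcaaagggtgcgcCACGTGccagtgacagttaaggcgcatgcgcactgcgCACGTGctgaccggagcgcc
Hormad2: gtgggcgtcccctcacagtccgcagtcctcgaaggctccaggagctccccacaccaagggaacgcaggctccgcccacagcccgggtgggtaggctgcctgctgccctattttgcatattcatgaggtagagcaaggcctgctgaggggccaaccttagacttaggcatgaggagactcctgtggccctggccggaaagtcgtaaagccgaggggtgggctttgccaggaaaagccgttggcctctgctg
Smc1b: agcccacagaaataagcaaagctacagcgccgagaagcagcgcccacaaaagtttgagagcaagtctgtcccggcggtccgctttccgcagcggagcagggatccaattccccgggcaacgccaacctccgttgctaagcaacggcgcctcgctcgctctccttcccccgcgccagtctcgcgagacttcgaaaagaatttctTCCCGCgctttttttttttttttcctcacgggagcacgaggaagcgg
Zcwpw1: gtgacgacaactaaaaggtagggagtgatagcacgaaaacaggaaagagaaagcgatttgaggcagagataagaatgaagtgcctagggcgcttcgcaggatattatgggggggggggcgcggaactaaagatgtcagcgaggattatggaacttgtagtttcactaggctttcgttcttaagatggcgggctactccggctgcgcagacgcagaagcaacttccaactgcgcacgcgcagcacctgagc
Taf7l: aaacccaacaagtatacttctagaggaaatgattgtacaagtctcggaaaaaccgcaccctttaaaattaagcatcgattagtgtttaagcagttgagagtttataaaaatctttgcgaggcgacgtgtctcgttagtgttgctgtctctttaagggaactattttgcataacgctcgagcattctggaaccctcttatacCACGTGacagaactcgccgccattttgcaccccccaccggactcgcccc
Slc25a31: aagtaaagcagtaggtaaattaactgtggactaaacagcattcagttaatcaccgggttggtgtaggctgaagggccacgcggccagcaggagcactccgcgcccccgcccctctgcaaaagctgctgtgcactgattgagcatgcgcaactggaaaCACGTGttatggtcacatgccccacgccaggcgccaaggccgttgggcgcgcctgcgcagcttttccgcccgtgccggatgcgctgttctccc
Tuba3b: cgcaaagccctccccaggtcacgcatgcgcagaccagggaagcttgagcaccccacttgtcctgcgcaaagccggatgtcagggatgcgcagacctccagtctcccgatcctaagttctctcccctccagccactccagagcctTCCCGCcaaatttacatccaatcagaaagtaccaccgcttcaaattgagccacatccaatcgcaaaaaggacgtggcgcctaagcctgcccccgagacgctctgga
Tex101: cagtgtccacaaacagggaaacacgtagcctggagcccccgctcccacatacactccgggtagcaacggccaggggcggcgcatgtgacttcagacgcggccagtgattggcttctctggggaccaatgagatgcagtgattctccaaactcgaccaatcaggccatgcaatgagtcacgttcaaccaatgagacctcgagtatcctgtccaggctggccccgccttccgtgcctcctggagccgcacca
In mm10 coordinates, which GRCm38.p6 shares for these chromosomes, the windows of Ddx4 (chr13:112652311-112652560), Mael (chr1:166238745-166238994), Sycp1 (chr3:102936101-102936350), Smc1b (chr15:85131958-85132207), Taf7l (chrX:134476491-134476740), Syce1 (chr7:140787855-140788104), Hormad2 (chr11:4441083-4441332) and Tex101 (chr7:24672051-24672300) lie on the minus strand. Those of Tdrd1 (chr19:56825959-56826208), Mov10l1 (chr15:88982744-88982993), Stk31 (chr6:49395354-49395603), Hormad1 (chr3:95559427-95559676), Zcwpw1 (chr5:137787552-137787801), Slc25a31 (chr3:40708621-40708870) and Tuba3b (chr6:145615713-145615962) lie on the plus strand. The RefSeq start of Tex101 lies 4625 bp downstream of the GENCODE one, that of Tuba3b 206 bp and that of Ddx4 165 bp. Of the 39 start peaks of genes with a promoter sequence, 34 shared at least 1 bp with these 250 bases, and neither Taf7l peak did. Sequences of Tex11, Piwil2, Tex15 and Spo11 were not used here.

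The E-box was frequent in these promoters. CACGTG, which is its own reverse complement, occurred in 12 of the 27 germline promoters (44.4%) and in 6.78% of the promoters of 16522 protein-coding genes read over the same 250 bases. GCGGGA on either strand occurred in 11 of the 27 (40.7%) and in 22.5% of all promoters. Both were present in 4 of the 27 (14.8%), which were Ddx4, Sycp3, Mael and Hormad1, and in 2.02% of all promoters. Matches of the 2 motifs did not overlap, and a match is a run of letters and not a measured binding site. The E-boxes lay 5 to 240 bases upstream of the start, with a median of 72.

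Among the 18 germline genes with a promoter sequence and a start peak in some list, 10 held the E-box, 8 held GCGGGA and 4 held both. Among the 9 with a promoter sequence and no start peak, the counts were 2, 3 and 0. The same split was not computed for all genes, so these counts do not show a trait particular to germline genes. Start peaks were called at the GENCODE start, while motifs were read upstream of the RefSeq start. Meioc, among those with GCGGGA, had no start peak by this rule. Its peaks in KO DMSO, WT talazoparib and WT DMSO nonetheless covered that GCGGGA. The 10 E-box genes with start peaks had 22 such peaks, and 14 of these covered an E-box. The peaks covered it in every list where they were listed at Mael (3 lists), Tdrd1 (2 lists), Hormad1 (3 lists, both of its E-boxes) and Brdt (1 list). At Ddx4 the peaks of KO talazoparib and KO DMSO covered it and that of WT talazoparib did not. At Sycp3 and Taf7l no peak reached it. The 8 GCGGGA genes with start peaks had 17 such peaks, and 16 of these covered a GCGGGA. Start peaks and promoter motifs both lie near the start by definition, so such cover is not particular to a motif. The promoters of Zcwpw1, Syce1 and Hormad2 held neither motif and had start peaks in 4, 3 and 2 lists.

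The lists hold 1 value per peak and pool the 3 IP libraries of a condition, so none of the differences below could be tested against replicates. On the main chromosomes they had 23946 peaks for KO talazoparib, 35445 for KO DMSO, 15526 for WT talazoparib and 28539 for WT DMSO, from 66.4, 69.2, 83.8 and 87.0 M IP tags and 28.3, 24.8, 24.5 and 38.1 M input tags. Every peak had at least 4 times as many scaled IP tags as input tags, and 41.8%, 21.7%, 19.7% and 45.6% of peaks had a fold under 5. Values are given below as the authors' normalised tag count, which is IP tags per 10000000 IP tags of the pool. The 95% intervals are exact Poisson intervals and cover counting error only. The smallest value of any peak was 2.79, 2.82, 2.51 and 2.41 in the same order, so a gene without a peak had no value here, which is not a value of 0. The labels place the genotypes on separate pairs of flow cells, so genotype and flow cell cannot be told apart.

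The share of genes with a peak was lower among germline genes than among genes at large in 3 of the 4 lists, KO DMSO being the exception. A peak in the body or within 5 kb was listed for 13 of 31 germline genes in KO talazoparib (41.9%), beside 58.9% of all protein-coding genes. The count was 22 in KO DMSO (71.0%), beside 66.8%. It was 8 in WT talazoparib (25.8%), beside 48.8%, and 16 in WT DMSO (51.6%), beside 60.9%. Longer genes offer more room for a peak, and the germline genes had a median length of 37.5 kb against 17.4 kb for all genes. Of all genes with a length between the quartiles of the germline genes, 67.4%, 75.9%, 57.3% and 70.0% had a peak in the same order of lists, beside 6, 10, 7 and 7 of the 15 germline genes in that range.

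In peaks per Mb, the germline windows held 9.08 in KO talazoparib, 14.2 in KO DMSO, 4.54 in WT talazoparib and 13.1 in WT DMSO. The genome as a whole held 9.04, 13.4, 5.86 and 10.8 in the same order. It includes the DNA between genes, so the backgrounds are not alike. The rate over the windows of all protein-coding genes was not computed.

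At the starts the shares were also below those of all genes. A start peak was listed for 12 of 31 germline genes in KO talazoparib (38.7%), beside 41.4% of all genes. It was listed for 14 in KO DMSO (45.2%), beside 51.3%, for 6 in WT talazoparib (19.4%), beside 32.6%, and for 10 in WT DMSO (32.3%), beside 42.4%. The share in KO talazoparib was close to the background, and the gap was widest in WT talazoparib. Within 1 kb of any annotated transcript start, 13, 16, 7 and 14 germline genes had a peak in the same order of lists. The share of all genes was not computed for that rule. Since start peaks are found mostly at CpG-rich starts, genes with a CpG ratio between the quartiles of the germline genes (0.505 to 0.720) make a closer background. Of these 4700 genes 60.4%, 73.3%, 45.3% and 60.3% had a start peak, beside 7, 8, 4 and 6 of the 15 germline genes in that range. In each list the germline share was the lower one.

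**Figure D1:**
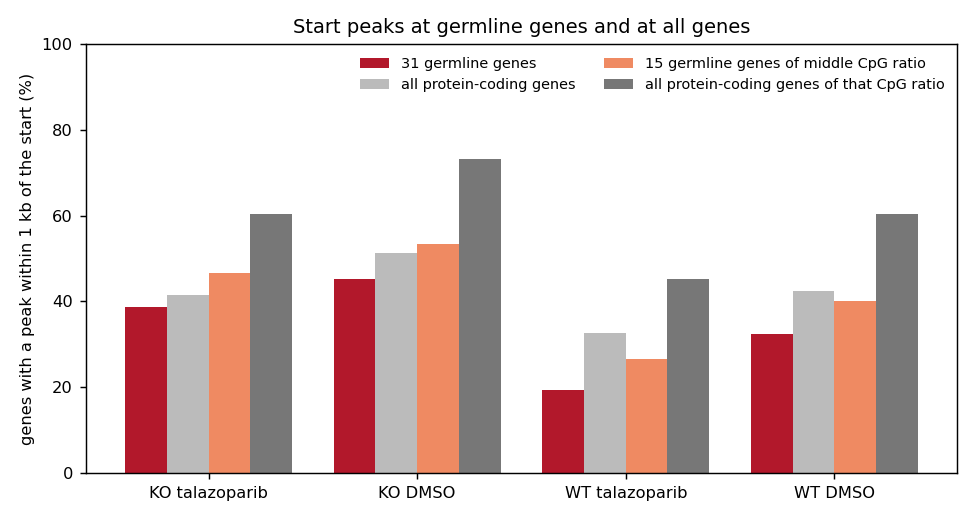
Share of genes (y axis, percent) with a peak within 1 kb of the start in each of the 4 lists (x axis), for the 31 germline genes, all 21938 protein-coding genes, the 15 germline genes with a CpG ratio between their own quartiles and the 4700 genes in the same range of CpG ratio. Each bar is 1 share from 1 pooled list, with no error, and the germline bar is the lower of its pair in every list.

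A smaller share of germline genes than of all genes had a start peak in every list. In all 4 lists together, 20 germline genes had a start peak in at least 1 list (64.5%, beside 59.7% of all genes). A start peak in every list was found at 2 of them, Zcwpw1 and Smc1b (6.45%, beside 21.6%). The count was 5 for exactly 3 lists (16.1%, beside 15.7%), 6 for 2 lists (19.4%, beside 11.8%) and 7 for 1 list (22.6%, beside 10.6%). The remaining 11 had none (35.5%, beside 40.3%). Over the whole windows, 25 genes had a peak in at least 1 list (80.6%, beside 73.9%). That was so in all 4 lists for 4 genes (12.9%, beside 39.0%), in exactly 3 for 8 (25.8%, beside 17.4%), in 2 for 6 (19.4%, beside 9.8%) and in 1 for 7 (22.6%, beside 7.66%). No peak of any kind was listed near Tex11, Slc25a31, Tuba3b, Asz1, Stra8 and Sohlh2 (19.4%, beside 26.1%). The 42 start peaks had centres from -887 bp (upstream) to 1245 bp (downstream) relative to the start, and 31 of them lay within 300 bp of it.

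**Figure D2:**
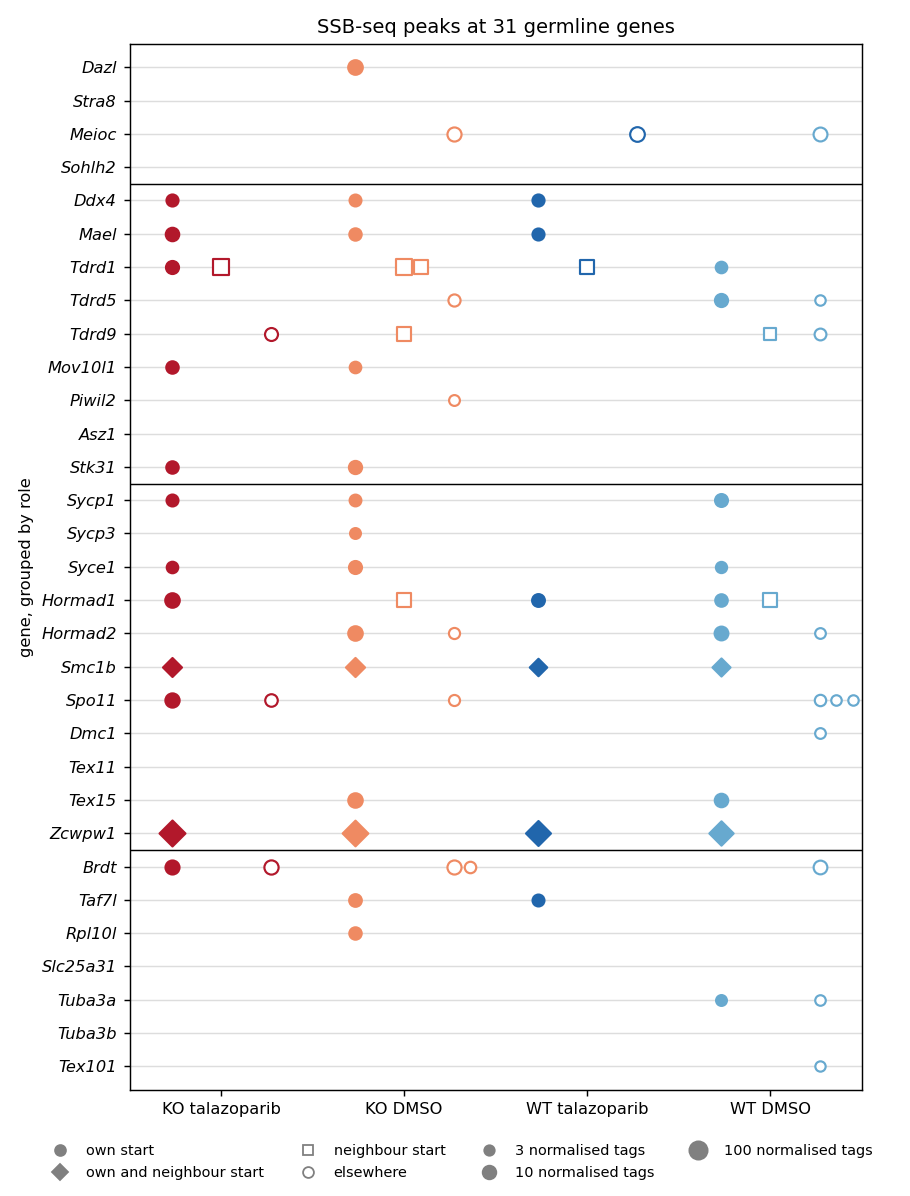
Peaks of the 4 lists (x axis) in the body or within 5 kb of each of the 31 germline genes (y axis, grouped by role), as filled circles at the gene's own start, diamonds over a start shared with a neighbouring gene, open squares at a neighbour's start and open circles elsewhere. Symbol area grows with the log of the normalised tag count: Zcwpw1 and Smc1b have a start peak in all 4 lists, and 6 genes have no symbol.

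Of the 4 genes for germ cell identity and meiotic entry, 0 had a start peak in KO talazoparib, 1 in KO DMSO, 0 in WT talazoparib and 0 in WT DMSO. The shares of all genes were 41.4%, 51.3%, 32.6% and 42.4% in the same order. Only Dazl thus had a peak at its GENCODE start, and Stra8 and Sohlh2 had no peak. Dazl encodes an RNA-binding protein that drives translation in germ cells. Its start peak (chr17:50292743-50294084) was listed in KO DMSO, with 15.1 normalised tags (95% interval 12.4 to 18.3), and in none of the other lists. Stra8, which germ cells need to begin meiosis, and Sohlh2, a transcription factor of early spermatogonia and oocytes, have starts with CpG ratios of 0.256 and 0.522.

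Meioc, a partner of YTHDC2 in holding the meiotic programme, had peaks just inside the gene and none within 1 kb of its GENCODE start. They had 12.2 normalised tags in KO DMSO, 15.7 in WT talazoparib and 11.1 in WT DMSO, with no peak in KO talazoparib. Their centres lay 1781 to 2211 bp downstream of the GENCODE start. The RefSeq start is 1869 bp downstream of it, so the centres were 39 bp upstream of the RefSeq start in KO DMSO, 342 bp downstream in WT talazoparib and 87 bp upstream in WT DMSO. The region (chr11:102665049-102666542) is CpG-rich, with 8.13 to 9.59 CpG per 100 bp, while the GENCODE start has a CpG ratio of 0.148.

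In the piRNA group, which silences transposons through small RNAs and tudor-domain proteins, 5 of 9 genes had a start peak in KO talazoparib, 4 in KO DMSO, 2 in WT talazoparib and 2 in WT DMSO. The shares of all genes were 41.4%, 51.3%, 32.6% and 42.4% in the same order. Ddx4 (Vasa), an RNA helicase of germ granules, had 5.19 normalised tags in KO talazoparib, 4.92 in KO DMSO and 5.25 in WT talazoparib, and no peak in WT DMSO (chr13:112652230-112652982). The 3 values lay within one another's intervals, which ran from 3.41 to 7.24 over the lists. Mael (Maelstrom), which acts in piRNA-guided silencing, had 9.18 (7.02 to 11.8) in KO talazoparib, 5.86 (4.19 to 7.96) in KO DMSO and 5.13 (3.71 to 6.91) in WT talazoparib, and no peak in WT DMSO (chr1:166238358-166239132). Ddx4 and Mael thus shared the same combination of lists.

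Mov10l1, the helicase that feeds precursors into piRNA production, had 6.02 normalised tags in KO talazoparib and 4.34 in KO DMSO, with no peak in WT lists (chr15:88982458-88983308). The centre lay at -201 bp in KO talazoparib and at 149 bp in KO DMSO relative to the start, and both peaks covered the start. Stk31, a tudor-domain kinase found with piRNA proteins, had 6.02 in KO talazoparib and 8.10 in KO DMSO and no peak in WT lists (chr6:49395216-49396152). The authors' fold of the Stk31 peak in KO DMSO, 20.12, rested on 1 input tag.

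Tdrd1, a tudor protein that binds Piwi proteins, had a start peak of 7.75 (5.78 to 10.2) in KO talazoparib and of 4.31 (3.04 to 5.93) in WT DMSO, and none in KO DMSO or WT talazoparib (chr19:56826010-56826653). A larger peak upstream in its window covered the start of the neighbouring gene Ccdc186 and had 20.1 normalised tags in KO talazoparib, 22.7 in KO DMSO and 14.5 in WT talazoparib, with none in WT DMSO. In KO DMSO a further peak of 8.46 lay at the start of Vwa2, beyond the other end of Tdrd1. Counted by its own start alone, Tdrd1 had peaks in 2 lists, and counted by its window it had peaks in 4.

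Tdrd5, which acts in piRNA biogenesis, had a start peak in WT DMSO, with 7.93 normalised tags (chr1:156302887-156303890). A weaker peak deep in an intron, about 72% of it repeat sequence, was listed in KO DMSO with 5.42 and in WT DMSO with 2.99. Tdrd9, a helicase of the same pathway, had no start peak. Its window held a peak at the start of the neighbour Atp5mpl, with 15.3 in KO DMSO and 5.69 in WT DMSO. It also held an internal peak 41302 bp from the start with 7.53 in KO talazoparib and, 41740 bp from the start, 4.83 in WT DMSO. Both centres lay within 233 bp of the start of a further annotated transcript of Tdrd9.

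Piwil2 (Mili), a Piwi protein, had 1 intronic peak of 3.4 in KO DMSO, and Asz1, a protein of the germ granules between mitochondria, had none. Both thus stood at the low end of the group.

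Of the 11 genes of meiotic chromosomes, 6 had a start peak in KO talazoparib, 7 in KO DMSO, 3 in WT talazoparib and 7 in WT DMSO, beside the shares of all genes of 41.4%, 51.3%, 32.6% and 42.4%. Zcwpw1 and Smc1b, whose starts are shared with neighbours, gave 8 of these peaks. Zcwpw1, a reader of the histone marks that PRDM9 leaves at recombination sites, had the highest values of all germline genes. They were 106.2 (98.5 to 114) normalised tags in KO talazoparib, 96.3 (89.1 to 104) in KO DMSO, 72.1 (66.5 to 78.1) in WT talazoparib and 56.1 (51.2 to 61.3) in WT DMSO. The counting intervals of both KO lists lay above those of both WT lists. Peaks at all protein-coding starts had higher medians in the KO lists too, 17.5 and 16.4 in KO talazoparib and KO DMSO against 9.84 and 10.6 in WT talazoparib and WT DMSO.

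The Zcwpw1 peak (chr5:137785259-137788864) was 3605 bp long in KO talazoparib, 3102 bp in KO DMSO, 2763 bp in WT talazoparib and 2713 bp in WT DMSO, and it also covered the start of Mepce, which runs the other way. Relative to the Zcwpw1 start its centre lay at -737, -688, -887 and -786 bp, that is upstream, and it was 545 to 744 bp from the start of Mepce. Per bp, its tags stood at 7.80, 8.22, 6.91 and 5.48 times the genome-wide mean in the same order of lists. It thus stood at the 95.8th to 99.4th percentile of all peaks of its list.

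Smc1b, the meiotic cohesin subunit, was the other gene with a start peak in all 4 lists (chr15:85131434-85132404). It had 9.18 normalised tags in KO talazoparib, 9.54 in KO DMSO, 5.91 in WT talazoparib and 7.01 in WT DMSO. The intervals overlapped, from 7.02 to 12.1 over the KO lists and from 4.38 to 9.01 over the WT lists. This start too is shared, with Ribc2, whose 5′ end lay 12 to 227 bp from the peak centres. No germline gene with a start of its own had a start peak in every list.

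Among the synaptonemal complex genes, Sycp1, the transverse filament, had 4.97 normalised tags in KO talazoparib, 4.70 in KO DMSO and 7.30 in WT DMSO, with no peak in WT talazoparib (chr3:102935340-102936294). Syce1, of the central element, had 4.29, 7.52 and 3.85 in KO talazoparib, KO DMSO and WT DMSO, and again none in WT talazoparib (chr7:140787095-140788061). Sycp3, of the lateral element, had 3.4 in KO DMSO alone (chr10:88459711-88460211), with a fold of 16.88 on 0.5 input tags. By density, this peak stood at the 3.49th percentile of its list, while the Sycp1 peak in WT DMSO stood at the 76.5th and the Syce1 peak in KO DMSO at the 62.9th.

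Hormad1 and Hormad2 are HORMA-domain proteins of the unsynapsed chromosome axis. Hormad1 had a start peak of 14.6 (11.8 to 17.8) normalised tags in KO talazoparib, 6.98 (5.31 to 9.01) in WT talazoparib and 6.21 (4.66 to 8.10) in WT DMSO (chr3:95559091-95560155). In KO DMSO its window held only a peak at the start of the next gene, Golph3l, with 15.1, a region that had 10.9 in WT DMSO. Hormad2 had 14.5 (11.8 to 17.7) in KO DMSO and 10.5 (8.47 to 12.9) in WT DMSO, and no peak in either talazoparib list (chr11:4440526-4441702). Smaller intronic peaks of 3.76 in KO DMSO and 3.28 in WT DMSO lay elsewhere in the gene. The 2 paralogues thus differed in their combination of lists, with WT DMSO in common.

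Tex15, needed for meiotic recombination and transposon silencing, had the same combination as Hormad2, with 14.2 (11.5 to 17.3) in KO DMSO and 9.2 (7.29 to 11.4) in WT DMSO (chr8:33516259-33517819). Spo11, the enzyme that makes meiotic double-strand breaks, had a start peak of 12.9 in KO talazoparib (chr2:172976557-172977973). An internal region, centred 2424 bp downstream of the start in KO talazoparib and 2488 bp in WT DMSO, had 6.40 and 3.05 normalised tags there. Upstream of Spo11, separate peaks had 3.69 in KO DMSO and 4.14 in WT DMSO, and a peak of 2.99 in WT DMSO lay beyond its end. Dmc1, the meiotic strand-exchange protein, had 1 intronic peak of 3.28 in WT DMSO, and Tex11, an X-linked recombination gene, had no peak.

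The last 7 genes are mostly male germ cell forms of widely expressed proteins, and 1, 2, 1 and 1 of them had a start peak in KO talazoparib, KO DMSO, WT talazoparib and WT DMSO, beside 41.4%, 51.3%, 32.6% and 42.4% of all genes. Brdt, the testis BET bromodomain protein, had a start peak of 11.7 (9.21 to 14.6) normalised tags in KO talazoparib (chr5:107330737-107331493). A region inside the gene (chr5:107358929-107360063), 28200 to 28525 bp from the start, recurred in KO talazoparib with 12.8, in KO DMSO with 12.1 and in WT DMSO with 10.3. These centres lay 152 to 477 bp from the start of another annotated Brdt transcript. A further intronic peak of 4.27 was listed in KO DMSO.

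Taf7l, a germ cell TFIID subunit, had 6.58 in KO DMSO and 4.95 in WT talazoparib (chrX:134474860-134476074), with centres 1245 and 796 bp downstream of the start. Rpl10l, an intronless copy of the ribosomal protein gene Rpl10, had 5.93 in KO DMSO (chr12:66283831-66284517), and Tuba3a, a testis tubulin, had 3.39 in WT DMSO (chr6:125286078-125286578) and a peak of 3.1 downstream of the gene in the same list. Tuba3b, Slc25a31 and Tex101 had no start peak. Reads from near-identical copies such as Tuba3a and Tuba3b or Rpl10l and Rpl10 cannot always be placed, and the sources used here do not state how the authors treated them.

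In the deposited lists of both genotypes, fewer germline genes had a start peak with talazoparib alone than with DMSO alone, and the same held for genes at large. This order turned under some other thresholds and held under others. Here and below, counts under other thresholds are for germline genes only. The shares of all genes were not computed for them, so a turned order cannot be called particular to germline genes. With the 15526 best-scoring peaks of each list, 10 germline genes had a start peak in KO talazoparib and 7 in KO DMSO, and with at least 3 input tags 10 and 9. With a fold of at least 6, 5 had one in WT talazoparib and 3 in WT DMSO. The order held in KO cells with a fold of at least 6 (2 and 5) and with a density of at least 2 (12 and 13). For WT cells it held with the 15526 best-scoring peaks (6 and 8), with at least 3 input tags (2 and 9) and with that density (5 and 8). In KO cells 4 genes had a start peak in KO talazoparib and none in KO DMSO (12.9%, beside 4.64% of all genes), namely Brdt, Hormad1, Spo11 and Tdrd1. The reverse held for 6 (19.4%, beside 14.5%): Dazl, Hormad2, Rpl10l, Sycp3, Taf7l and Tex15. In WT cells 3 had one in WT talazoparib and none in WT DMSO (9.68%, beside 6.21%): Ddx4, Mael and Taf7l. The reverse held for 7 (22.6%, beside 16.0%): Hormad2, Syce1, Sycp1, Tdrd1, Tdrd5, Tex15 and Tuba3a. A start peak in both DMSO lists and in neither talazoparib list was found at 2 genes, Hormad2 and Tex15 (6.45%, beside 4.14%), and the reverse at none (beside 0.479%).

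Over the whole windows no germline gene had a peak in KO talazoparib and none in KO DMSO (beside 3.79%), while 9 had the reverse (29.0%, beside 11.6%). These were Dazl, Hormad2, Meioc, Piwil2, Rpl10l, Sycp3, Taf7l, Tdrd5 and Tex15. The count of 0 rests on neighbours' peaks. In KO DMSO the windows of Hormad1, Tdrd1 and Tdrd9 held only peaks at neighbours' starts. In KO talazoparib Hormad1 and Tdrd1 had a peak at their own start and Tdrd9 an internal one. Pair counts with neighbours' peaks left out were not computed. In WT cells the counts were 3 (9.68%, beside 5.01%) and 11 (35.5%, beside 17.1%). The 11 were Brdt, Dmc1, Hormad2, Spo11, Syce1, Sycp1, Tdrd5, Tdrd9, Tex101, Tex15 and Tuba3a. Hormad2, Tdrd5 and Tex15 had peaks in both DMSO lists and in neither talazoparib list (9.68%, beside 3.63%), and no gene had the reverse (beside 0.387%). When the 15526 best-scoring peaks of each list were used, 4 genes had a peak in KO talazoparib and none in KO DMSO and 4 the reverse. The reverse stayed the larger count in KO cells with a fold of at least 6 (0 and 7) and with at least 3 input tags (3 and 7). For WT cells the same 3 alternatives gave 3 and 7, 4 and 6, and 0 and 9. The talazoparib lists are also the shorter of each pair, and the part of list length in the WT counts was not tested beyond the alternatives given here and in the closing section.

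Between genotypes, the deposited lists gave more germline genes with a start peak in KO cells and none in WT cells than the reverse, but this order depended on the threshold. With the 15526 best-scoring peaks of each list, 7 germline genes had a start peak in KO DMSO and 8 in WT DMSO. With a fold of at least 6, 2 had one in KO talazoparib and 5 in WT talazoparib. With DMSO the KO count stayed the higher at a fold of at least 6 (5 and 3) and a density of at least 2 (13 and 8). At least 3 input tags gave 9 and 9. With talazoparib the KO count stayed the higher at equal list lengths (10 and 6), at least 3 input tags (10 and 2) and that density (12 and 5). In the deposited lists with DMSO, 8 had one in KO DMSO and none in WT DMSO (25.8%, beside 13.8%): Dazl, Ddx4, Mael, Mov10l1, Rpl10l, Stk31, Sycp3 and Taf7l. The reverse held for 4 (12.9%, beside 4.97%): Hormad1, Tdrd1, Tdrd5 and Tuba3a. With talazoparib, 7 had one in KO talazoparib and none in WT talazoparib (22.6%, beside 15.3%): Brdt, Mov10l1, Spo11, Stk31, Syce1, Sycp1 and Tdrd1. The reverse held for Taf7l (3.23%, beside 6.55%). Mov10l1 and Stk31 had start peaks in both KO lists and in neither WT list (6.45%, beside 3.73%), and no gene had the opposite pattern (beside 0.561%).

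Over the whole windows the DMSO comparison gave 9 genes with a peak in KO DMSO and none in WT DMSO (29.0%, beside 10.1%), which were the 8 above and Piwil2, and 3 the other way (9.68%, beside 4.32%), Dmc1, Tex101 and Tuba3a. With talazoparib, 7 had a peak in KO talazoparib alone of the pair (22.6%, beside 16.1%) and 2 in WT talazoparib alone (6.45%, beside 6.04%), Meioc and Taf7l. With the 15526 best-scoring peaks of each list, the DMSO counts became 4 and 5. With a fold of at least 6, the talazoparib counts became 1 and 4. The KO count stayed the higher with DMSO at that fold (6 and 4) and at least 3 input tags (4 and 2). With talazoparib it stayed the higher at equal list lengths (5 and 2) and at least 3 input tags (8 and 1).

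The start peaks of germline genes were weak for start peaks. Without the shared starts of Zcwpw1 and Smc1b, the median was 6.89 normalised tags in KO talazoparib (10 peaks), 6.26 in KO DMSO (12), 5.19 in WT talazoparib (4) and 6.76 in WT DMSO (8). The medians over all peaks at protein-coding starts were 17.5, 16.4, 9.84 and 10.6 in the same order. Peaks over shared starts were kept in these, and in the density and input medians of all start peaks below. The sets compared are therefore not alike in that respect. In tag density, which takes length into account, the germline medians were 2.94, 2.51, 2.28 and 2.22 times the genome mean, and those of all start peaks 4.83, 3.75, 3.16 and 3.03. Of all 42 germline start peaks, 6 had a density above the median of the start peaks of their list and 25 lay below the first quartile. The 6 were the Zcwpw1 peak in 4 lists, that of Smc1b in KO talazoparib and that of Hormad2 in WT DMSO. Against peaks of every location, 27 of the 42 were above their list's median. The germline peaks at unshared starts had a median of 3.75, 3, 2 and 4.5 input tags in the same order of lists, against 9.5, 6.5, 4.5 and 7.5 for all start peaks. A fold under 5 was found in 5 of 12, 5 of 14, 1 of 6 and 4 of 10 germline start peaks, beside 43.4%, 22.2%, 31.4% and 41.3% of all start peaks.

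**Figure D3:**
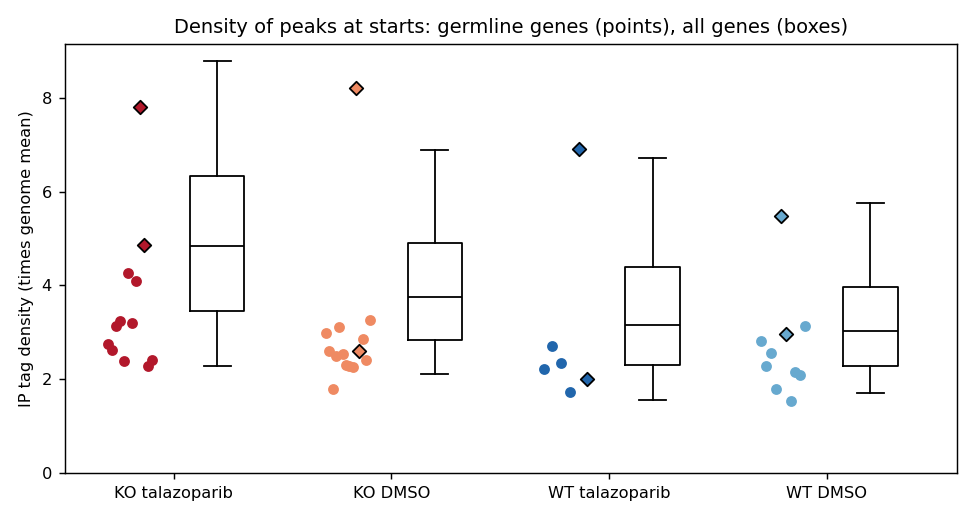
IP tag density (y axis, times the genome mean) of peaks within 1 kb of a start in each list (x axis): points are germline start peaks, diamonds those of Zcwpw1 and Smc1b over shared starts, and boxes are all peaks at protein-coding starts (line, median; box, quartiles; whiskers, 5th to 95th percentile). Germline circles lie between 1.53 and 4.27, mostly in or below the lower part of the boxes.

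Of the 72 peaks in the windows, 34 lay at the gene's own start alone, 8 over a start shared with a neighbour, 8 at a neighbour's start and 22 elsewhere. Of the last group, 13 had their centre in an intron, 4 in an exon, 2 upstream and 3 downstream of the gene. The centres of 10 of these 22 lay within 500 bp of the start of another annotated transcript of the same gene, which were 3 peaks of Meioc, 2 of Tdrd9, 2 of Spo11 and 3 of Brdt. The medians of the peaks elsewhere were 7.53 normalised tags in KO talazoparib (3 peaks), 4.27 in KO DMSO (7), 15.7 in WT talazoparib (1, at Meioc) and 3.28 in WT DMSO (11).

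**Figure D4:**
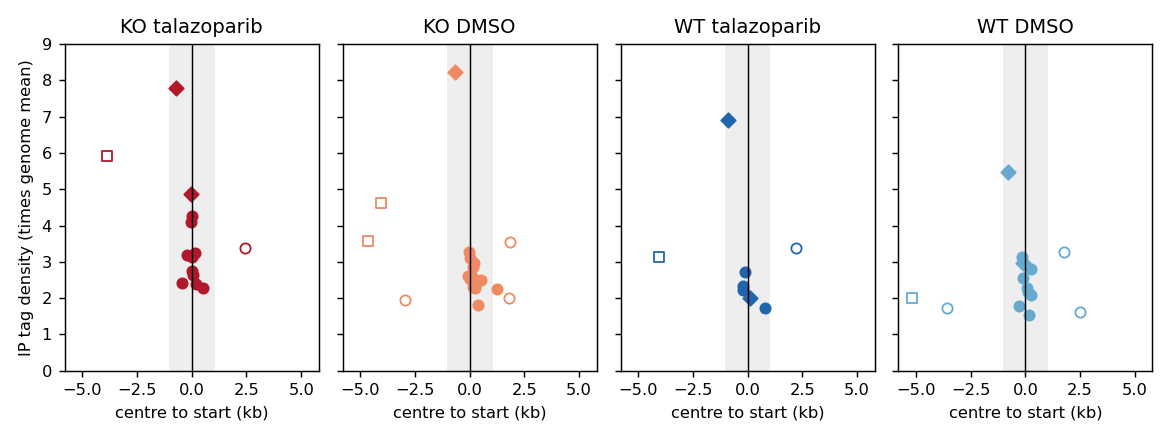
Distance of the peak centre from the gene's start (x axis, kb, negative upstream) and IP tag density (y axis, times the genome mean) of the germline peaks centred within 5.5 kb of the start, in each list, with the 1 kb windows shaded. Filled circles are peaks at the gene's own start, diamonds at a shared start, open squares at a neighbour's start and open circles elsewhere; the highest diamonds are Zcwpw1, at 5.48 to 8.22.

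Peaks were merged across lists into 39 regions in the germline windows. Of these, 18 were in 1 list (46.2%), 11 in 2 (28.2%), 8 in 3 (20.5%) and 2 in 4 (5.13%). Over all 60797 regions the shares were 61.6%, 17.7%, 11.2% and 9.47%. At germline starts there were 20 regions, of which 7 were in 1 list (35.0%) and 2 in 4 lists (10.0%), against 24.0% and 32.5% of the 12492 regions at all protein-coding starts. Peaks close to the edge of the windows change which genes count. Just inside it, Tex101 had its single peak of 2.87 in WT DMSO 4306 bp beyond the gene's end. Just outside, a Tex101 peak of 3.4 in KO DMSO lay 5463 bp away. Beyond Spo11, 5855 to 6292 bp from its end and over the start of Rae1, lay peaks of 27.8 in KO talazoparib, 34.1 in KO DMSO, 11.3 in WT talazoparib and 17.1 in WT DMSO, which were not counted.

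The median CpG ratio was higher in genes with a start peak than in those without one, among germline genes and among all genes. The 20 germline genes with a start peak in some list had a median CpG ratio of 0.685 and the 11 without one 0.470. For all genes the medians were 0.724 and 0.193. The germline median was thus above that of all genes without a start peak and below it with one. The ratios were read at GENCODE starts. The RefSeq starts of Meioc, Tex101 and Stra8, which had no start peak, lie 1869, 4625 and 785 bp downstream of these. Tex11 and Slc25a31 had CpG ratios of 0.751 and 0.753 and no peak in any list, while Spo11, with 0.229, had a start peak in KO talazoparib.

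**Figure D5:**
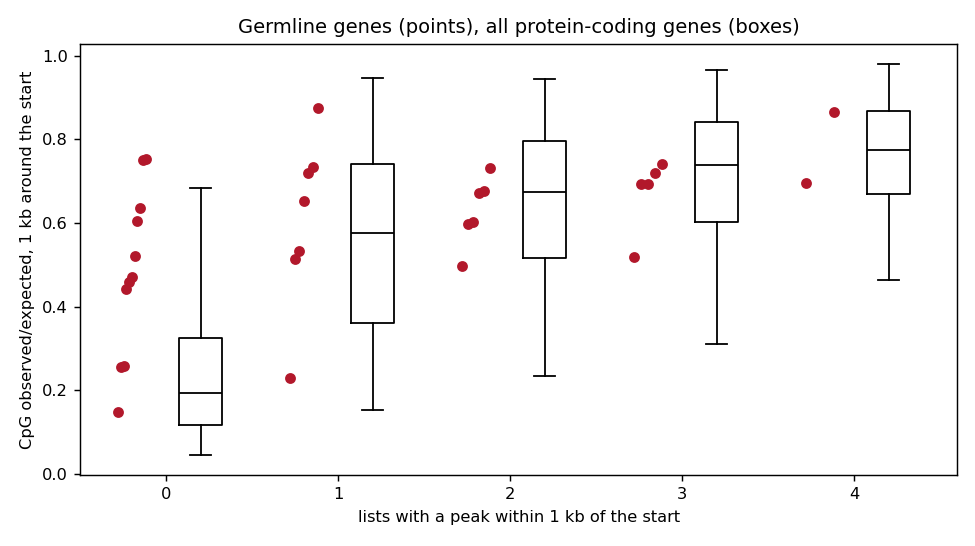
Ratio of observed to expected CpG over 1 kb around the start (y axis) by the number of lists with a start peak (x axis): points are the 31 germline genes and boxes all protein-coding genes (line, median; box, quartiles; whiskers, 5th to 95th percentile). At 0 lists 10 of the 11 points lie above the box's median of 0.193, and at 4 lists the points are Zcwpw1 (0.865) and Smc1b (0.695).

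Counts in other gene groups are set beside the shares of all genes with a start peak, 41.4% in KO talazoparib, 51.3% in KO DMSO, 32.6% in WT talazoparib and 42.4% in WT DMSO. Of 11 widely expressed paralogues, 9 had a start peak in KO talazoparib, 11 in KO DMSO, 7 in WT talazoparib and 8 in WT DMSO. In all 4 lists they were Brd2, Rpl10, Slc25a5, Ddx3x and Mov10. Brd2, a widely expressed BET protein related to Brdt, had 160.4, 181.3, 35.9 and 115.4 normalised tags at its start in the same order, where Brdt had 11.7 in KO talazoparib and no start peak in the other lists. Ddx3x, a helicase related to Ddx4, had 17.8, 28.3, 16.7 and 12.1. Mov10, related to Mov10l1, had 12, 27.5, 4.65 and 11.7, in all 4 lists, while Mov10l1 had its peaks in the KO lists alone. Slc25a5 had 10.4, 8.82, 5.97 and 9.94, where Slc25a31 had no peak. Rpl10 had 18.4, 16.8, 6.26 and 10.9, where Rpl10l had 5.93 in KO DMSO.

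Of 25 genes for repressors of germline genes (the E2F6, MGA and MAX complex, H3K9 methylation and DNA methylation), 14 had a start peak in KO talazoparib, 21 in KO DMSO, 15 in WT talazoparib and 15 in WT DMSO. Mga and Max, which encode the E-box readers named above, had one in all 4 lists, with 40.1, 40.2, 19.0 and 25.2 normalised tags at Mga and 35.4, 30.1, 20.0 and 19.8 at Max. The others in all 4 lists were L3mbtl2, Rnf2, Cbx3, Hdac2, Kdm5c, Dnmt3b and Uhrf1. E2f6 had a start peak of 12.3 in KO DMSO and of 8.97 in WT DMSO, and none in either talazoparib list.

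Of 35 further germline genes, 10 had a start peak in KO talazoparib (28.6%) and 20 in KO DMSO (57.1%). The counts were 14 in WT talazoparib (40.0%) and 13 in WT DMSO (37.1%). These shares lay above those of all genes in KO DMSO and WT talazoparib and below them in the other lists. Over the whole windows, 60.0%, 77.1%, 51.4% and 54.3% had a peak in the same order of lists, beside 58.9%, 66.8%, 48.8% and 60.9% of all genes. A start peak in all 4 lists was found at Tex19.1, Tdrkh, Msh4, Msh5, Rec8, Stag3 and Gpat2, which is 7 of 35 (20.0%), close to the 21.6% of all genes. Stag3, a meiotic cohesin subunit, had 44.1, 37.8, 21.3 and 25 normalised tags in the same order of lists. These lists too were chosen with earlier results of the data known, so the counts are descriptions.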

How the data were processed

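Single-strand breaks were mapped by SSB-seq in 16 libraries, 3 IP and 1 input for each of 4 conditions. Per the submitters' processing notes, the genome was mm10 and the tools were HOMER 4.11, Picard 2.9.2, R 3.6 and Bowtie2 2.3.4.2, with no role or setting given. Per the file headers, the deposited tables (1 for each condition) have HOMER peak columns, and each holds 1 value per peak for the pooled IP libraries. The authors' normalised tag count is a signal per 10000000 IP tags, and the deposited input column is a signal in steps of 0.5 tags. A deposited column of another unit holds IP tags scaled to the input. The fold deposited by the authors is a ratio, scaled IP tags over input tags. The deposited score ranked peaks within a list, and the deposited p-value was not used.

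The IP totals were estimated from the step of low normalised tag counts (under 6), of which 100% fell on the step within 0.0051. Density is tags per bp over the list's mean on the 2648 Mb of sequenced bases. Starts and gene bodies are those of GENCODE M21, and sequences are RefSeq's. Peak coordinates are unchanged from the tables, which do not say whether they count from 0 or 1. The overlap step was tested on simulated data. Python 3.11.15, pandas 2.3.3 and scipy 1.17.1 were used. Because the deposited tables pool the 3 IP libraries, no test was possible on them, so counts stand beside the share of all 21938 genes.

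The 31 genes, the other gene lists and the settings were chosen with earlier results of these data known. Every peak's normalised tag count is given for genes with a start peak in any list, with peaks in all 4 lists, or with peaks in both lists of 1 genotype or treatment and in neither of the other; the rest are given by counts and ranges, and some single peaks were named after their values were seen. In the other lists, genes with a start peak in all 4 lists are named, and E2f6 in addition. Alternatives were a fold of at least 6, equal list lengths, at least 3 input tags, a density of at least 2, other windows and overlaps, and neighbours' peaks left out.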

Additional observations from a re-analysis of the deposited data

Results flagged for a closer look

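For 2 germline genes the presence of a peak with talazoparib ran in opposite directions in the 2 genotypes. Tdrd1 had a start peak in KO talazoparib, with 7.75 normalised tags, and none in KO DMSO, while in WT cells it had none in WT talazoparib and one of 4.31 in WT DMSO. Taf7l had none in KO talazoparib and one of 6.58 in KO DMSO, while it had one of 4.95 in WT talazoparib and none in WT DMSO. The Taf7l peak is the only one in its window, so the same values hold for its start and its whole window. These differences between genotypes were not tested, since each condition is 1 pooled list.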

How the results depend on the processing

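Over 20 counts and 120 alternatives, 85 counts stayed within 1.5 times the reported one and 35 did not. All are counts of germline genes or their peaks, and the shares of all genes under the alternatives were not computed. Requiring a fold of at least 6 left 2 germline genes with a peak in KO talazoparib, 9 in KO DMSO, 5 in WT talazoparib and 7 in WT DMSO, with 2, 9, 5 and 9 peaks in the windows. Start peaks were then found at 2 genes in KO talazoparib, 5 in KO DMSO, 5 in WT talazoparib and 3 in WT DMSO. Genes with a peak in WT DMSO and not in WT talazoparib were then 6, in KO talazoparib and not in WT talazoparib 1, and in WT talazoparib and not in KO talazoparib 4, which turns the order of the last pair. Keeping the 15526 best-scoring peaks of each list left 11 genes, 11 peaks and 7 genes with a start peak in KO DMSO and 13 peaks in WT DMSO. Genes with a peak in KO talazoparib and not in KO DMSO were then 4 and the reverse 4, against the reported 0 and 9. In KO DMSO and not in WT DMSO they were 4 and the reverse 5, against 9 and 3, and in WT DMSO and not in WT talazoparib 7. At equal list length KO DMSO thus had no surplus over KO talazoparib or WT DMSO in these pair counts. Requiring at least 3 input tags left 16 peaks and 9 genes with a start peak in KO DMSO, and 4 genes, 4 peaks and 2 genes with a start peak in WT talazoparib. With that limit, genes in KO talazoparib and not in KO DMSO were 3, in WT talazoparib and not in WT DMSO 0, in KO DMSO and not in WT DMSO 4, and in WT talazoparib and not in KO talazoparib 1. A density of at least 2 left 13 peaks in WT DMSO. Leaving out peaks at neighbours' starts left 5 genes and 5 peaks in WT talazoparib; applied to start peaks this alternative was chosen after seeing the data. The other windows and overlaps moved no count by over 1.5 times. No paired analysis was possible because no table holds values for single libraries, and no replicate could be left out for the same reason. The causes of these shifts were not tested. Few input tags limit the fold of single peaks.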
